A study of Mus musculus with 9 samples.

Results

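The ribosomal protein genes are the 88 of 23234 listed genes whose symbols start with Rpl or Rps followed by a digit, together with Rplp0, Rplp1, Rplp2 and Rpsa, and without the Rps6 kinase symbols. Of the 88 symbols, 53 name large subunit genes and 35 name small subunit genes. They hold 77 canonical genes of the cytosolic ribosome (46 large, 31 small), 8 paralogues with a changed letter or number in the symbol, 2 pseudogene symbols (Rpl34-ps1 and Rps19-ps3), and Rps19bp1, which encodes a protein that binds Rps19 and is not part of the ribosome. Their expression was measured by RNA sequencing in mouse group 2 innate lymphoid cells, or ILC2s, which are lymphocytes settled in tissues that secrete type 2 cytokines. The cells came from the lymphoid clusters of fat in wild-type C57BL/6 mice. Each culture ran for 48 h, and 3 libraries were made per group, from cells given IL-33 and IFN-γ, IL-33 and IL-27, or IL-33 alone. Every cytokine was given at 10 ng/ml, so all 3 groups carried IL-33, an alarmin that activates ILC2s. The labels state neither age nor sex, nor whether each replicate was its own culture or animal, so the p-values reflect only how far these libraries spread, which may be technical.

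The ribosome is built from a small subunit, which reads the mRNA, and a large subunit, which joins amino acids, and most of its proteins are present once in each ribosome. Most ribosomal protein mRNAs begin with a C and a run of pyrimidines, the 5′ terminal oligopyrimidine (TOP) tract, through which mTOR signalling controls their translation together. In lymphocytes, activation and growth draw on ribosome supply, and the transcripts of these genes are among the most abundant of the cell.

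The start of the message is shown for 6 genes, read from RefSeq (build GRCm38.p6) from 60 bases before the annotated start to 20 bases from it, 5′ to 3′ on the gene's strand. Capitals mark a pyrimidine tract that begins with C at the annotated start and, where present, the letters CCGGAA bound by ETS factors such as GABP. Rps28, Rps10, Rpl28 and Rplp2 are shown because their levels are described here, and Rps18 and Rpl38 as examples of a tract at the start.
Rps28 (chr17:33824543-33824622, minus strand): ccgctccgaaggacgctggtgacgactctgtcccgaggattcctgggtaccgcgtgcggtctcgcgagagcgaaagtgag
Rps10 (chr17:27635225-27635304, minus strand): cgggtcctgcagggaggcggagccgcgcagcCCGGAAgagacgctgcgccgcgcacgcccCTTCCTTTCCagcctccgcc
Rps18 (chr17:33955646-33955725, minus strand): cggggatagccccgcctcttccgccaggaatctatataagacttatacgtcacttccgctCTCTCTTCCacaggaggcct
Rpl28 (chr7:4792905-4792984, plus strand): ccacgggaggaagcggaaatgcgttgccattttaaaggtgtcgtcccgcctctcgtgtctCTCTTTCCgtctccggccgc
Rpl38 (chr11:114668520-114668599, plus strand): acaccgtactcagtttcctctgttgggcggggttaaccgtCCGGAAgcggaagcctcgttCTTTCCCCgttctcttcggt
Rplp2 (chr7:141447591-141447670, plus strand): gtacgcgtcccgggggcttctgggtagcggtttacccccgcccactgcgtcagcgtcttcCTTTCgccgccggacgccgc
The tracts were 10 bases long at Rps10, 9 at Rps18, 8 at Rpl28 and Rpl38 and 5 at Rplp2, and the window of Rps28 held neither feature at this annotated start.

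A RefSeq promoter of 300 bases (250 before and 50 from the start) was matched by symbol for 56 of the 77 canonical genes. A tract of C and at least 4 further pyrimidines stood exactly at the start of 12 of the 56 (21.4%), against 2.49% of all 27025 promoters of the same length. Within 10 bases of the start it was found in 53.6% of the canonical genes and in 29.1% of all promoters. On either strand, CCGGAA was present in 50% against 15.2% of all promoters, the Sp1 letters GGGCGG in 58.9% against 35.9%, and the YY1 letters AAGATGG in 14.3% against 6.48%. TATAAA was present in 8.93% against 14.2%. The core of the interferon-stimulated response element (bound by interferon regulatory factors) was present in 7 of the 56 (12.5%) against 3.49%. Motifs were counted without regard to overlap with one another. The 7 genes with that element had a median log2 fold change of 0.34 with IFN-γ over IL-33 alone, and the other 49 had 0.37. For the 12 genes with a tract at the start that median was 0.36, and for the other 44 it was 0.37.

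Values are FPKM (fragments per kilobase of transcript, scaled to the mapped fragments), so levels can be set beside each other between genes. Libraries held roughly 861000 to 993000 fragments as judged from the steps between low values, which makes 1 fragment in a transcript of 1 kb worth 1.01 to 1.16 FPKM. All 14 ILC2 markers were detected. The cytokine genes Il5 and Il13 summed to 4167 to 6798 FPKM with IFN-γ, 9229 to 10014 FPKM with IL-27 and 11569 to 20256 FPKM with IL-33 alone, and the other 12 markers to 2113 to 3438.5 FPKM with IFN-γ, 2755 to 4463 FPKM with IL-27 and 2352 to 3706 FPKM with IL-33 alone, with overlapping groups. That sum joins markers that differed in opposite directions. Il2ra had 314.5 to 414 FPKM with IFN-γ against 877 to 1018 FPKM with IL-33 alone. Areg had 216 to 777 FPKM with IFN-γ against 62.7 to 104 FPKM with IL-33 alone. Markers of other cells were low or absent. The 6 listed T cell markers summed to 34.0 to 104.7 FPKM (Cd4 at 0) and the 5 B cell markers to 20.3 to 84.8 FPKM (Pax5 at 0), the macrophage, mast cell and erythroid markers to at most 19.5, 9.30 and 49.2 FPKM, and the adipocyte markers were all at 0. The 8 fibroblast and mesothelial markers (Msln at 0) summed to 33.6 to 81.2 FPKM in the replicate 3 libraries of all groups and to 2.70 to 17.1 FPKM in the other 6. The T cell sum split the same way, with 82.0 to 104.7 FPKM in replicate 3 and 34.0 to 49.0 FPKM in the others. Most of it was Cd3g, with 75.8 to 97.6 FPKM in replicate 3 and 28.4 to 43.2 FPKM in the others. Cd3d and Cd3e had at most 1.70 and 2.51 FPKM in any library. The mast cell sum split this way too, with 5.70 to 9.30 FPKM against 0 to 2.51 FPKM. The B cell, macrophage and erythroid sums overlapped between replicate 3 and the others. Of the ILC2 markers, Gata3, Rora, Id2, Il7r, Thy1, Klrg1 and Ptprc were likewise higher in every replicate 3 library than in any other. Gata3 had 270.9 to 347.6 FPKM in replicate 3 and 160.7 to 245.8 FPKM in the others. The remaining ILC2 markers overlapped between replicate 3 and the others. The replicate 3 tables also use another number format. The counts called with IFN-γ over IL-33 alone, the changes of Rps28 and Rpl36 and the blocked calls of the translation lists are also given without those libraries. Most other results are given only with them. Equal replicate numbers paired the libraries (correlations of deviations 0.128 to 0.367), so a fit with the number as a block, called the blocked fit, is given where it changes a call.

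Ribosomal protein transcripts made up a large part of the ILC2 transcriptome in every library. The 77 canonical genes together held 20.1%, 20.2% and 18.2% of the FPKM sum with IFN-γ, 15.3%, 18.4% and 16.4% with IL-27, and 13.6%, 17.8% and 15.6% with IL-33 alone. Every IFN-γ library except replicate 3 lay above all other libraries, replicate 3 lay above all IL-33 libraries and below IL-27 replicate 2, and the IL-27 and IL-33 ranges overlapped. The means were 19.5% ± 1.11 with IFN-γ, 16.7% ± 1.57 with IL-27 and 15.7% ± 2.13 with IL-33 alone (SD, n = 3 each). In bulk RNA a change in the number of cells of a type cannot be told apart from a change in RNA per cell, and a share can move because other transcripts move.

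The group means had the same order in both subunits, highest with IFN-γ and lowest with IL-33 alone. Large subunit genes held 11.7%, 11.7% and 10.7% of the FPKM sum with IFN-γ, 9.03%, 10.7% and 9.64% with IL-27, and 8.09%, 10.5% and 9.47% with IL-33 alone. Small subunit genes held 8.40%, 8.44% and 7.50% with IFN-γ, 6.28%, 7.73% and 6.76% with IL-27, and 5.49%, 7.31% and 6.11% with IL-33 alone. For each subunit the lowest IFN-γ library stood above the highest IL-33 library, by a narrow margin. The order of IL-27 over IL-33 alone turned for the large subunit without 1 library, from a difference of 0.42 percentage points to -0.21 without IL-33 replicate 1 and to -0.02 without IL-27 replicate 2. The summed large over small ratio was 1.40, 1.39 and 1.43 with IFN-γ, 1.44, 1.38 and 1.43 with IL-27, and 1.47, 1.44 and 1.55 with IL-33 alone. All IFN-γ ratios were below all IL-33 ratios, the closest pair being replicate 3 with IFN-γ and replicate 2 with IL-33 alone, and the IL-27 ratios overlapped the IL-33 range only at replicate 1.

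**Figure D1:**
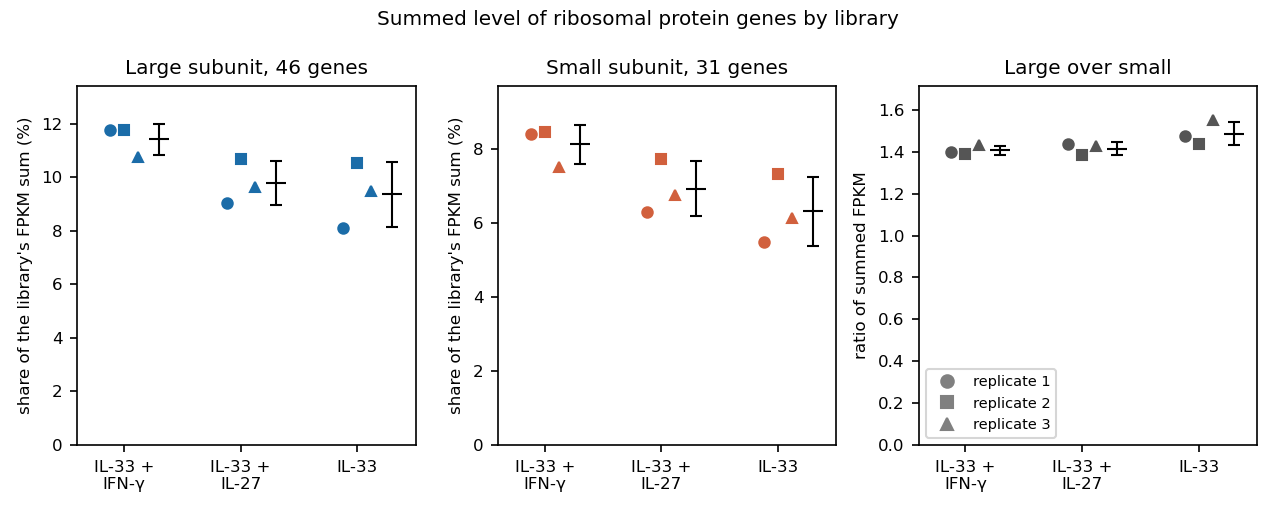
Share of each library's FPKM sum held by the 46 large subunit genes (left) and the 31 small subunit genes (middle), in percent, and the ratio of the 2 sums (right). Symbols are libraries by replicate number, and the bar and whiskers are the mean and SD of 3 libraries; the IFN-γ libraries are the highest in both shares, except replicate 3 in the small subunit, and their ratios of 1.39 to 1.43 lie below the IL-33 ratios of 1.44 to 1.55.

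The share depends on what else was listed. Small RNAs (736 listed symbols of snoRNA, snRNA, microRNA and similar) took 11.9%, 7.05% and 5.97% of the sum with IFN-γ, 13.7%, 3.51% and 7.96% with IL-27, and 18.0%, 7.03% and 8.16% with IL-33 alone, and were highest in replicate 1 of each group. With them left out, the ribosomal protein share was 22.9%, 21.7% and 19.4% with IFN-γ, 17.7%, 19.1% and 17.8% with IL-27, and 16.5%, 19.2% and 17.0% with IL-33 alone. The IFN-γ libraries then lay above every other library. Ribosomal protein genes themselves hold many of these small RNAs in their introns, and in GENCODE vM1 (build mm9) 30 of the members contained 58 snoRNA genes, of which 27 were listed by symbol. Single rows could be high in 1 library and at 0 in the other 8, as for Snord100 (7627 FPKM in IFN-γ replicate 2) and Snord34 (4808 FPKM in IFN-γ replicate 3). In transcripts this short a few fragments give a large FPKM, so the small RNA shares are uncertain.

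Levels differed widely between members. The canonical genes had a median of 1410 FPKM (mean over 9 libraries), 53 of the 77 were at 1000 FPKM or above, and 3 were under 100 FPKM. They supplied 23 of the 50, 51 of the 100 and 69 of the 200 most abundant genes. The large subunit median was 1273 FPKM and the small subunit median 1449 FPKM. The most abundant large subunit genes were Rplp1 (4462 FPKM), Rpl23a (3602 FPKM), Rpl19 (2884 FPKM) and Rplp0 (2607 FPKM), and the most abundant small subunit genes were Rps12 (3108 FPKM), Rps9 (2403 FPKM) and Rps20 (2231 FPKM). At the low end stood Rps27, with 6.10, 5.82 and 3.20 FPKM with IFN-γ, 2.76, 2.43 and 2.40 FPKM with IL-27, and 2.47, 1.95 and 2.20 FPKM with IL-33 alone, while its paralogue Rps27l had 286 to 539 FPKM. Rpl34 had 4.50 to 47.1 FPKM, against 1141 to 1610 FPKM for the pseudogene symbol Rpl34-ps1. Ribosomal protein genes have many processed copies in the genome that share reads with the parent gene, and how shared reads were assigned is not given in the sources used here, so the split between such copies is uncertain, as are the low levels of Rps27, Rpl34 and Rpl30 (7.20 to 88.3 FPKM).

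IFN-γ was set against IL-33 alone to see which members the interferon moved on top of IL-33. Of the 88 members 85 were tested. Rpl3l and Rpl10l were listed at 0 in every library, and Rpl39l, at no more than 1.68 FPKM, was below the filter of a mean of 1 FPKM. Limma called 2 members higher and 0 lower (adjusted p under 0.05, with 33 under 0.05 before adjustment), beside a background over all 11014 tested genes of 2.19% called higher, 0.717% called lower and 15.4% under 0.05 before adjustment. The blocked fit called 36 members higher (20 large, 16 small) and 0 lower, against a background of 6.51% higher and 4.66% lower. Without replicate 3 of all groups limma called 0 members, with and without the block (backgrounds of 2.02% and 0.99% called higher), and the median log2 fold change of the canonical genes was then 0.42. That fit has 6 libraries, with 2 residual degrees of freedom under the block. Without the block, and with all libraries but one, the count was 0 to 2. It was 0 in 7 of the 9 omissions, 1 without IL-27 replicate 1 and 2 without IL-33 replicate 2.

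The fold changes were small and nearly all positive. Of the 77 canonical genes 76 had a positive log2 fold change, Rpl26 being the exception, against 52.5% positive among all tested genes. The median was 0.37 (1.29-fold), against 0.03 over all tested genes. It was 0.36 for the large subunit and 0.39 for the small subunit, a difference of 0.03 between the medians, while the large subunit genes ranged from -0.24 to 0.88 and the small subunit genes from 0.08 to 1.06. With quantile normalization the large subunit median was 0.20 and 0 members were called. With median ratio scaling more members were called than without it, but the share over all tested genes is not given here. In 37 of the 85 members every IFN-γ library was above every IL-33 library, and in 0 was it the other way, beside a background of 11.9% and 8.65%. Within same-number pairs, 63 of the 85 were higher with IFN-γ in all 3 pairs (background 24.4%). The median difference of the canonical genes was 0.57 in pair 1, 0.27 in pair 2 and 0.32 in pair 3, largest in the pair with the IL-33 library whose small RNA share was 18.0%. The part of that share in the pair difference was not tested.

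**Figure D2:**
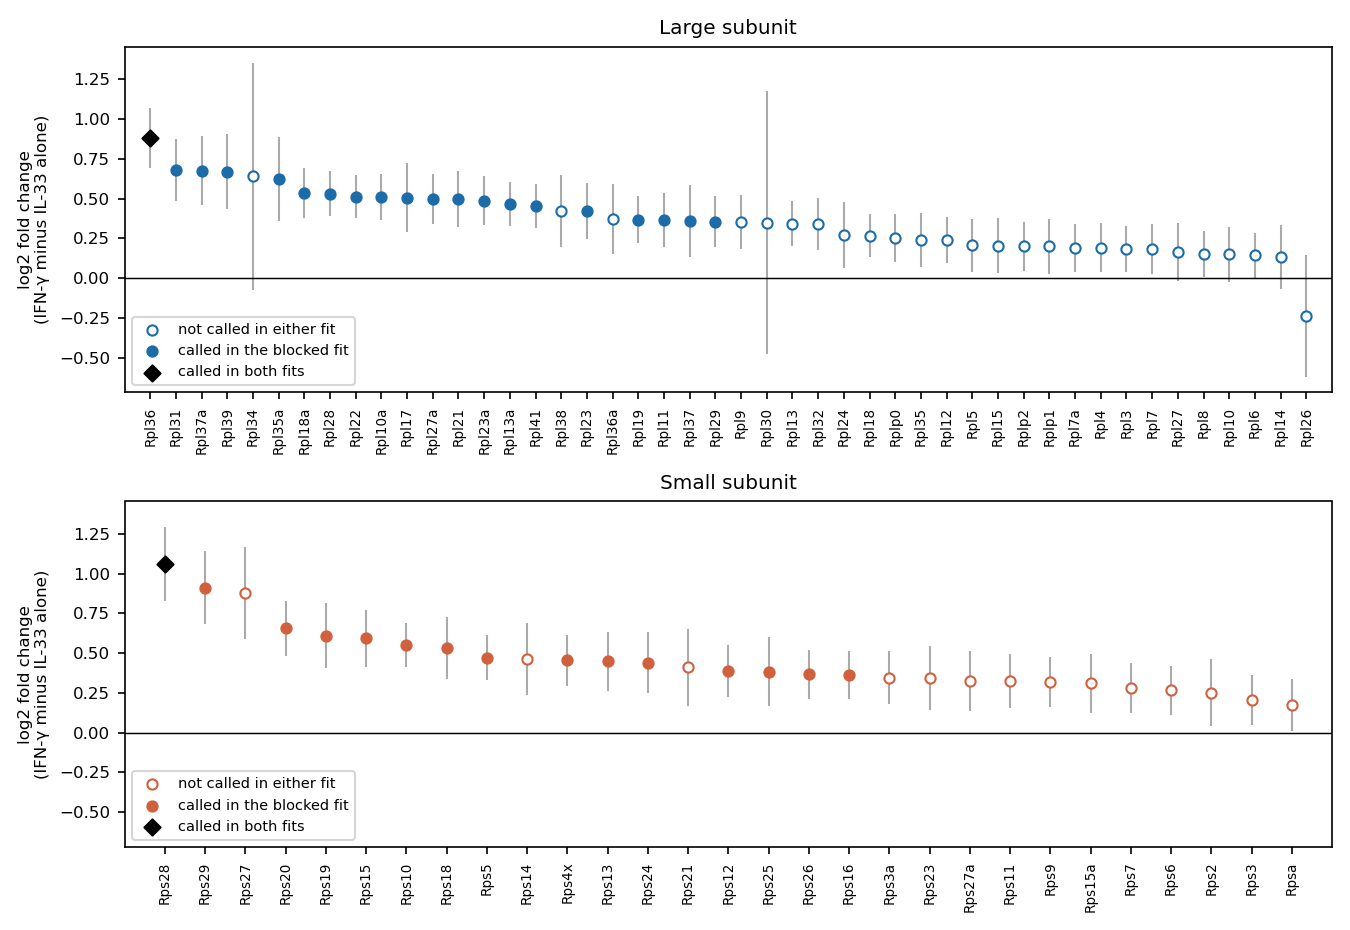
Log2 fold change of 75 of the canonical genes between IFN-γ with IL-33 and IL-33 alone, in units of log2(FPKM + 1), with whiskers of 1 SE from limma, ordered by size within the large (top) and small (bottom) subunit. Black diamonds passed the threshold of an adjusted p under 0.05 with and without the replicate block, filled circles in the blocked fit alone and open circles in neither; 74 of the 75 genes are above 0.

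Rps28, a protein of the head of the small subunit (chr17:33955972-33961507, minus strand, build mm9), had the largest change. It had 1159, 1124 and 1608 FPKM with IFN-γ, against 669, 671 and 514 FPKM with IL-33 alone. Every IFN-γ library was well above every IL-33 library, and replicate 3 was the highest with IFN-γ and the lowest with IL-33 alone. It rose 2.08-fold (log2 fold change 1.06 ± 0.23 SE, limma adjusted p = 0.0419, and 0.0200 in the blocked fit). The change without replicate 3 of all groups was 0.77 (limma adjusted p = 0.292).

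Rpl36, a large subunit protein (chr17:56752818-56753666, plus strand, build mm9), was the other call. It had 1232, 1154 and 1303 FPKM with IFN-γ, against 631, 843 and 557 FPKM with IL-33 alone, with little spread among the IFN-γ libraries and no overlap. It rose 1.84-fold (log2 fold change 0.88 ± 0.19 SE, limma adjusted p = 0.0377, and 0.00868 in the blocked fit). Without replicate 3 of all groups the change was 0.71 (limma adjusted p = 0.272). With 1 library left out at a time, limma's adjusted p was 0.0260 to 0.133 for Rpl36, under the threshold only without IL-33 replicate 2, and 0.0271 to 0.153 for Rps28, under it only without IL-27 replicate 1.

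The small subunit genes with the next smallest adjusted p after Rps28 were Rps29, Rps10 and Rps20. With all libraries, they were called in the blocked fit alone. Rps29 was also called without the block in 1 omission of a single library (limma adjusted p = 0.0405). Rps27 had a larger change than Rps10 and Rps20, at 0.88, and was called in neither fit (blocked limma adjusted p = 0.0728). At 1.95 to 6.10 FPKM, its change rests on few fragments. Rps29, a zinc-binding protein of the subunit head, had 1021, 1277 and 1406 FPKM with IFN-γ and 612, 885 and 506 FPKM with IL-33 alone (log2 fold change 0.91 ± 0.23 SE, limma adjusted p = 0.0721, 0.0159 blocked). Rps20, a head protein that is ubiquitinated when ribosomes collide, had 2670.2, 2969 and 2767 FPKM with IFN-γ and 1469, 2109 and 1805 FPKM with IL-33 alone (log2 fold change 0.66 ± 0.17 SE, limma adjusted p = 0.0855, 0.00511 blocked). Rps10, another target of that quality control, had 1668, 1644 and 1559 FPKM with IFN-γ and 977, 1198 and 1164 FPKM with IL-33 alone (log2 fold change 0.55 ± 0.14 SE, limma adjusted p = 0.0730, 0.0140 blocked). None of the 3 had overlapping groups, and Rps10 had the tightest IFN-γ libraries of them.

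Among large subunit genes, the next were Rpl31, Rpl22 and Rpl28. Rpl31, which lies at the exit of the peptide tunnel, had 783, 850.3 and 837 FPKM with IFN-γ and 449, 598 and 504 FPKM with IL-33 alone (log2 fold change 0.68 ± 0.19 SE, limma adjusted p = 0.113, 0.0127 blocked). Rpl22, whose loss in mice impairs αβ T cell development, had 193, 195 and 175 FPKM with IFN-γ and 125, 140.5 and 129 FPKM with IL-33 alone (log2 fold change 0.51 ± 0.14 SE, limma adjusted p = 0.0881, 0.00994 blocked). Rpl28, a large subunit protein singled out after seeing its values, had 2355, 2144 and 2264 FPKM with IFN-γ and 1383, 1652 and 1657 FPKM with IL-33 alone (log2 fold change 0.53 ± 0.14 SE, limma adjusted p = 0.0905, 0.0141 blocked). All IFN-γ libraries were above all IL-33 libraries for the 3 genes.

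**Figure D3:**
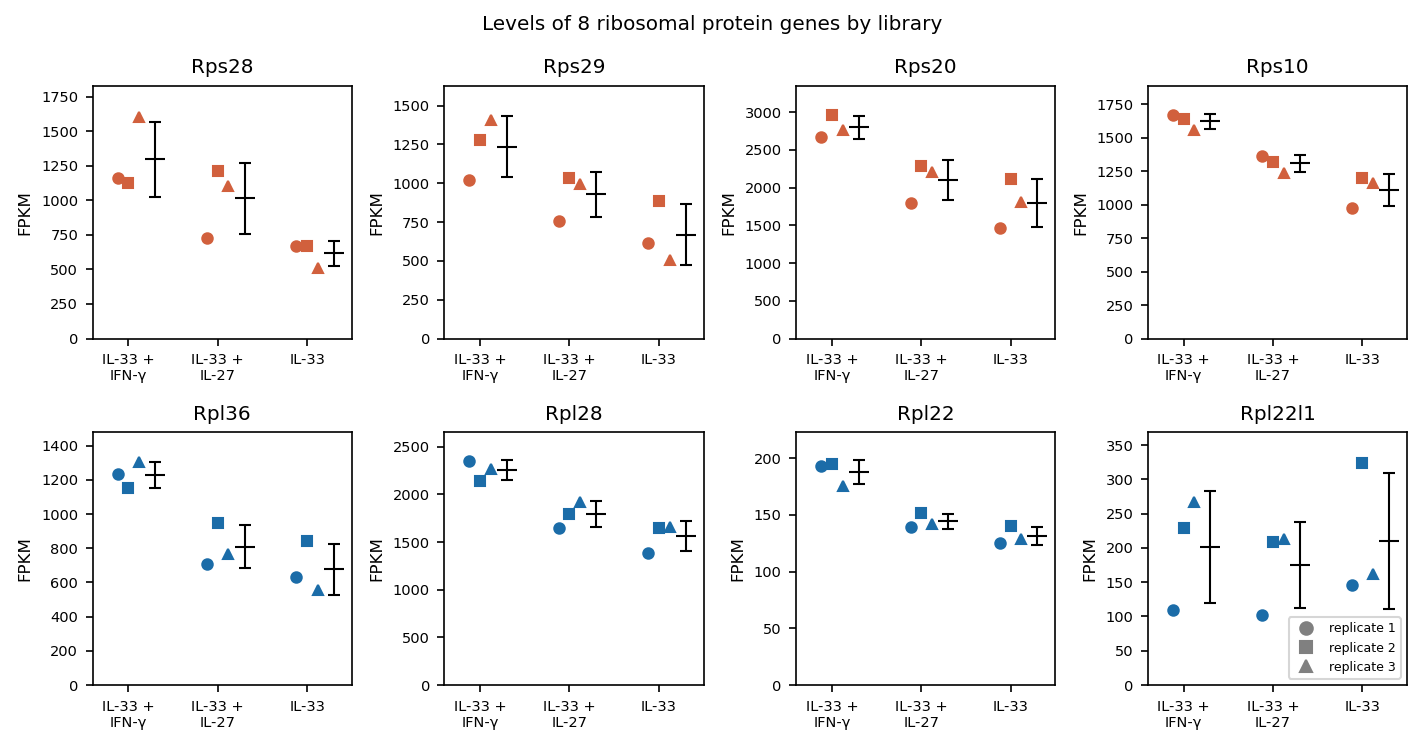
FPKM of 8 ribosomal protein genes in each library, small subunit genes in red and large subunit genes in blue, with replicate number as the symbol and the mean and SD of 3 libraries as bar and whiskers. The IFN-γ libraries stand above all IL-33 libraries in 7 of the panels, while Rpl22l1 spans 109 to 266 FPKM with IFN-γ and 145 to 324 FPKM with IL-33 alone.

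The stalk genes and Rpsa had small differences that did not pass the threshold. Rplp0 anchors the stalk and Rplp1 and Rplp2 form it, and together they recruit the translation GTPases. Rplp0 had 2996, 3013 and 2783 FPKM with IFN-γ and 2124, 2425 and 2878 FPKM with IL-33 alone (log2 fold change 0.25 ± 0.15 SE, limma adjusted p = 0.481). Rplp1 had 5236, 5495 and 4409.6 FPKM with IFN-γ and 3714, 5298 and 4263 FPKM with IL-33 alone (log2 fold change 0.20 ± 0.17 SE, limma adjusted p = 0.653). Rplp2 had 2273, 2548 and 2192 FPKM with IFN-γ and 1942, 2381 and 1811 FPKM with IL-33 alone (log2 fold change 0.20 ± 0.15 SE, limma adjusted p = 0.606). The groups overlapped for each of the 3 stalk genes. Rpsa, a small subunit protein also known as the laminin receptor precursor, had 2078, 2193 and 1630.5 FPKM with IFN-γ and 1523, 1843 and 1853 FPKM with IL-33 alone (log2 fold change 0.17 ± 0.16 SE, limma adjusted p = 0.691). Quantile normalization turned the small changes of Rplp2 and Rpsa to negative values (-0.03 and -0.06).

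Paralogues stood beside their partners as follows. Rpl22l1, which Rpl22 represses, had 109, 229 and 266 FPKM with IFN-γ and 145, 324 and 162 FPKM with IL-33 alone (log2 fold change -0.06 ± 0.43 SE, limma adjusted p = 0.973). Its libraries overlapped widely where those of Rpl22 did not overlap, and its direction turned to 0.30 without IL-33 replicate 2 and to 0.33 without IFN-γ replicate 1. The difference between the 2 genes was not tested. Rpl36al, a copy of Rpl36a, had 284, 421 and 313 FPKM with IFN-γ and 351, 523 and 355 FPKM with IL-33 alone (log2 fold change -0.27 ± 0.24 SE, limma adjusted p = 0.670), while Rpl36a had 681, 832 and 728 FPKM with IFN-γ and 432, 751 and 587 FPKM with IL-33 alone. Rpl36al was lower with IFN-γ in all 3 pairs and Rpl36a higher in all 3, and neither passed the threshold. Rpl7l1 had 41.1 to 101 FPKM and Rps4y2 5.05 to 10.5 FPKM over the 9 libraries. Rps19bp1, also called Aros, had 11.2 to 31.3 FPKM.

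IL-27 was set against the same IL-33 libraries. Limma called 0 of the 85 members in either direction, with 1 under 0.05 before adjustment (background 9.51%), and 0 were called in the blocked fit. The background was 0.908% called higher and 0.118% lower, and 3.37% and 1.78% in the blocked fit. Positive log2 fold changes were found in 61 of the 77 canonical genes, with a median of 0.13 (1.09-fold) against 0.01 over all tested genes. The median was 0.10 for the large and 0.14 for the small subunit. In 4 of the 85 members, Rps28, Rps10, Rpl41 and Rpl13a, all IL-27 libraries were above all IL-33 libraries, a smaller share than the background of 8.29%. In 0 all were below (background 5.72%).

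Rps28 again had one of the largest differences, with 728, 1216 and 1103 FPKM with IL-27 against 669, 671 and 514 FPKM with IL-33 alone (log2 fold change 0.69 ± 0.23 SE, limma adjusted p = 0.325). Rps29 had 759.6, 1030.4 and 992 FPKM with IL-27 against 612, 885 and 506 FPKM with IL-33 alone (log2 fold change 0.50 ± 0.23 SE, limma adjusted p = 0.538). For Rps10 the values were 1367, 1323 and 1236 FPKM with IL-27 against 977, 1198 and 1164 FPKM with IL-33 alone. Rpl41, which encodes the shortest ribosomal protein, had 1887, 2022 and 2141 FPKM with IL-27 against 1623, 1869 and 1873 FPKM with IL-33 alone, and Rpl13a had 1735, 1814 and 1777 FPKM with IL-27 against 1418, 1716 and 1608 FPKM with IL-33 alone. The lowest member was Rpl26, a protein near the peptide exit, with 235, 259 and 90 FPKM with IL-27 against 373, 216 and 229 FPKM with IL-33 alone (log2 fold change -0.58 ± 0.38 SE, limma adjusted p = 0.712). Its value rested on 2 libraries that stood apart, IL-27 replicate 3 and IL-33 replicate 1, and ranged from -0.85 to -0.10 when single libraries were left out.

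Between IFN-γ and IL-27 directly, limma called 0 of the 85 members, with 6 under 0.05 before adjustment (background 4.39%), and 0% of all tested genes were called in either direction. The blocked fit called 0 members, with a background of 0.0545% higher and 0.127% lower. Of the 77 canonical genes 76 had a positive log2 fold change, with a median of 0.25 (1.19-fold) against 0.01 over all tested genes, and 0.26 for the large against 0.24 for the small subunit. All IFN-γ libraries were above all IL-27 libraries in 35 of the 85 members (background 5.5%) and below in 0 (background 4.03%). Rpl36 had 1232, 1154 and 1303 FPKM with IFN-γ against 706, 949 and 768 FPKM with IL-27 (log2 fold change 0.62 ± 0.19 SE, limma adjusted p = 0.993, 0.174 blocked). Rpl22 had 193, 195 and 175 FPKM with IFN-γ against 139, 151 and 142 FPKM with IL-27, with no overlap (log2 fold change 0.38 ± 0.14 SE, limma adjusted p = 1, 0.171 blocked).

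Other genes of the translation machinery had list medians below 0 in both comparisons with IL-33 alone, apart from the list of ubiquitin fusion genes. Fau, which encodes the ribosomal protein Rps30 fused to a ubiquitin-like protein and falls outside the symbol rule, is on that list. Fau had 650.1, 813 and 777 FPKM with IFN-γ, 614, 783 and 843 FPKM with IL-27, and 557, 597 and 700.4 FPKM with IL-33 alone. It did not pass the threshold with IFN-γ (limma adjusted p = 0.522). The TOP mRNAs Eef1a1, Eef2 and Tpt1, which are not ribosomal proteins, averaged 7279.9 ± 602, 1431 ± 139 and 1999 ± 249 FPKM with IFN-γ and 7157 ± 1418, 1297 ± 256 and 1724 ± 457 FPKM with IL-33 alone (SD, n = 3 each), all within the spread of the libraries.

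Limma called 0 of the 206 tested genes of 5 translation lists in any comparison (16 under 0.05 before adjustment with IFN-γ, 8 with IL-27, 4 between IFN-γ and IL-27). With IFN-γ over IL-33 alone the median log2 fold change was -0.21 over 44 translation factors, -0.44 over 58 ribosome biogenesis genes, -0.10 over 26 mTOR pathway and TOP regulator genes, and -0.09 over 76 mitochondrial ribosomal protein genes. With IL-27 over IL-33 alone the medians were -0.26, -0.50, -0.17 and -0.14 over the same lists. In the blocked fit 21 of the 58 biogenesis genes were lower and 0 higher with IFN-γ (background 4.66% lower), and 14 were lower and 0 higher with IL-27 (background 1.78% lower). Without replicate 3 of all groups the blocked fit called 0 of the 58 lower in either comparison (backgrounds of 0.717% with IFN-γ and 0.0908% with IL-27). The median was then -0.40 in both. Npm1, a nucleolar chaperone singled out from these after the fact, had 2375, 2868 and 1383 FPKM with IFN-γ, 2079.6, 2459 and 1509.5 FPKM with IL-27, and 3081, 3703 and 2365 FPKM with IL-33 alone (limma adjusted p = 0.472 with IFN-γ, 0.0213 blocked). Myc, a transcription factor that drives ribosome production, averaged 92.5 ± 26.8 FPKM with IFN-γ, 83.3 ± 38.6 FPKM with IL-27 and 88.5 ± 26.2 FPKM with IL-33 alone (SD, n = 3 each).

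**Figure D4:**
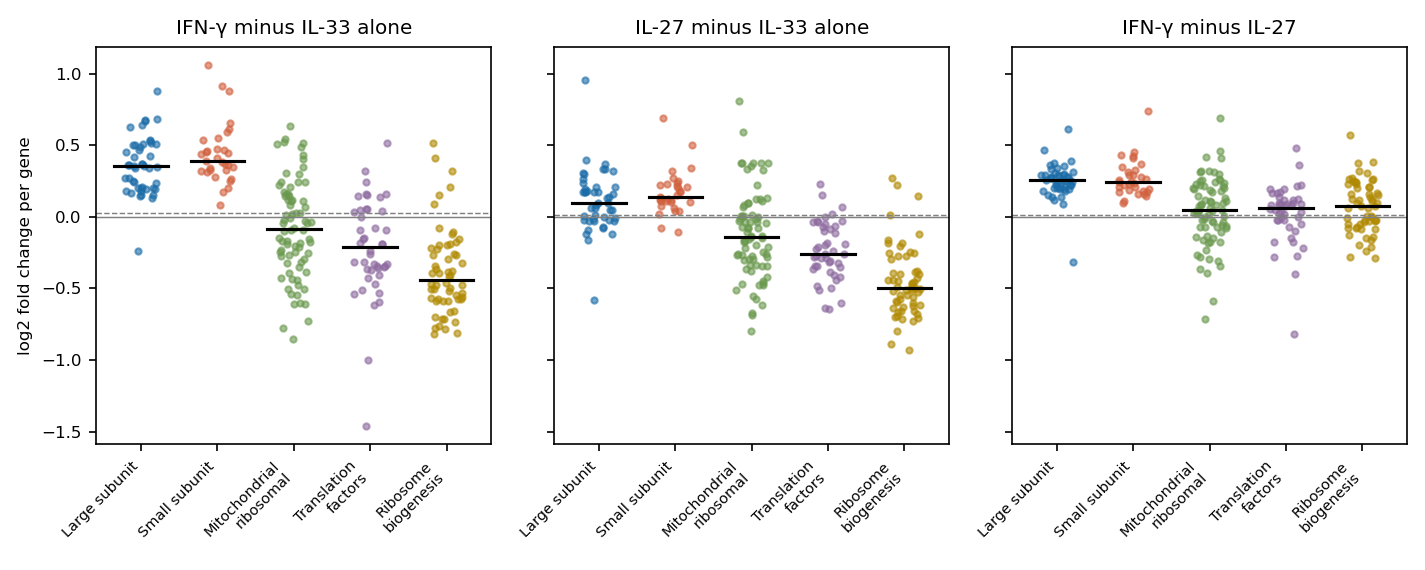
Log2 fold change of each tested gene, as a point, for the large and small subunit genes, the mitochondrial ribosomal protein genes, the translation factors and the ribosome biogenesis genes in the 3 comparisons. Black bars are medians, the dashed line is the median of all tested genes and the solid line is 0; the subunit medians of 0.36 and 0.39 with IFN-γ over IL-33 alone lie above that line, and the biogenesis median of -0.44 lies below it.

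Apart from the groups, the canonical genes varied together from library to library. Deviations from the group mean over the 9 libraries correlated at a median Pearson r of 0.66 between large subunit genes, 0.67 between small subunit genes and 0.68 between the subunits. The same median was 0.23 with mitochondrial ribosomal protein genes, 0.15 with biogenesis genes and 0.03 with all other tested genes. These correlations share the libraries and the FPKM scaling, and are a description. The genes least like the mean of the others were Rpl26 (r = -0.13), Rps27 (0.08), Rps28 (0.19), Rpl30 (0.21), Rpl34 (0.36) and Rplp0 (0.37), which include the gene with the largest IFN-γ change and the lowest members. The canonical genes as a whole were furthest below their group's mean in IL-33 replicate 1 (median deviation -0.19 log2) and furthest above it in IL-33 replicate 2 (0.19).

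Shorter members had larger changes over IL-33 alone, with a weak relation to length. Across 76 canonical genes with an annotated transcript length, the log2 fold change with IFN-γ over IL-33 alone had r = -0.33 and rho = -0.38 with log2 length, against r = -0.02 over 10692 tested genes, and with IL-27 over IL-33 alone r = -0.27 and rho = -0.38, against r = 0.03. Between IFN-γ and IL-27 it was r = -0.12 and rho = -0.14. These are correlations across genes, which are not independent replicates. Length is that of the longest annotated coding transcript, which need not be the one expressed. It was 5130 bases for Rps15a and 3706 bases for Rps20, whose change with IFN-γ was 0.66. The median change with IFN-γ was 0.44 in the 10 members under 500 bases, 0.36 in the 40 of 500 to under 1000 bases and 0.29 in the 26 of 1000 bases or more. Over all tested genes it was 0.20 in the 178 under 500 bases, 0.13 in the 658 of 500 to under 1000 bases and 0.02 in the 9856 longer ones. With IL-27 over IL-33 alone the members under 500 bases had a median of 0.25, against 0.0068 over all tested genes of that length. Rps28 (437 bases), Rpl36 (404 bases), Rps29 (390 bases) and Rps27 (345 bases), the canonical genes with the largest changes, all had transcripts under 500 bases. The part of length in their changes was not tested. Rps27, at 1.95 to 6.10 FPKM, rests on few fragments.

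**Figure D5:**
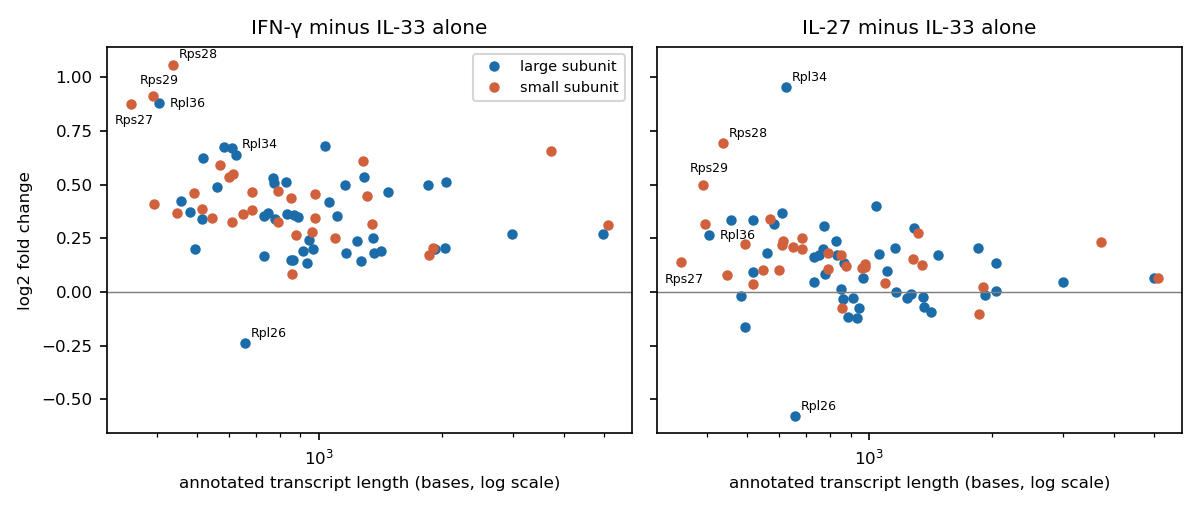
Log2 fold change against annotated transcript length (GENCODE vM1, log axis) for 76 canonical genes, with large subunit genes in blue and small subunit genes in red, for IFN-γ minus IL-33 alone (left) and IL-27 minus IL-33 alone (right). The 4 genes with the largest changes in the left panel lie at its short end, between 345 and 437 bases. Of these, Rps27 rests on few fragments.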

How the data were processed

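RNA was sequenced from 9 libraries of cultured mouse ILC2s, 3 per group, made with an Allprep Micro extraction and the TruSeq v2 low sample preparation, per the labels' protocols. The authors deposited FPKM per gene symbol; the unit is not written in the tables and was inferred from the values and from Cufflinks being named. Bowtie2 2.1.0, TopHat2 2.0.8, Cufflinks 2.1.1 and build mm9 are named per the submitters' processing notes, with no roles; the annotation and the handling of reads with several matches are not given in the sources used here. No read counts were analysed.

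Commas that group digits in the replicate 3 tables were removed. The 11014 of 23234 genes whose mean over the 9 libraries reached 1 FPKM were analysed as log2(FPKM + 1), which understates changes of low genes, with limma 3.58.1 in R 4.3.3 (lmFit, contrasts.fit, eBayes with trend, two-sided). All 3 groups were in 1 fit with no covariate, and p-values were adjusted by Benjamini-Hochberg over all tested genes within each comparison, with a threshold of 0.05. Folds are 2 to the power of the log2 fold change. The blocked fit adds the replicate number. The 9 pairs of libraries with the same number had correlated deviations from their group means (0.128 to 0.367), and the 18 other pairs had correlations of -0.298 to -0.0251; the labels do not state what a number shares. The fit was tested on simulated data. Depth was estimated from the steps between low values and is approximate.

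Gene positions and lengths (longest coding transcript) came from GENCODE vM1, build mm9, for 87 members, and promoters from RefSeq, build GRCm38.p6. Tables and figures used pandas 2.3.3, matplotlib 3.10.9 and numpy 2.4.6 under Python 3.11.15. The members and lists were chosen with earlier results of these data known. Genes were named by a rule: Rplp0, Rplp1, Rplp2 and Rpsa, called members, the extremes of level and of change, paralogues with their partners, and the non-overlapping members with the largest changes. Counts and medians over members have no test. Alternatives changed the pseudocount (0.1, 10), the low-value filter (none, 5 FPKM), the scaling, the variance trend, the block and the libraries. Some genes and motifs that enter the counts and medians are not reported here by name.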

Additional observations from a re-analysis of the deposited data

How the results depend on the processing

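The count of members called higher with IFN-γ over IL-33 alone was the result that moved most. It was 2, and became 36 with the replicate block, 9 with median ratio scaling, 4 with small RNAs left out, and 0 with no filter on low values, quantile normalization, no variance trend, only the 2 groups compared, or without replicate 3 of all groups (0 also with the block, a setting chosen after seeing the data). With single libraries left out it was 0 to 2. The causes were not tested. For median ratio scaling and with small RNAs left out, the share of all tested genes called is not given here. The counts of 9 and 4 therefore have no background. In that comparison 0 members were called lower, and 0 in either direction in the other comparisons, under every alternative run. The large subunit median with IFN-γ over IL-33 alone was 0.20 with quantile normalization against 0.36, and the small minus large difference of the medians was 0.0336 to 0.10 with single libraries left out. With medians in place of sums, the large over small ratio differed by -0.12 (IFN-γ minus IL-33 alone) and -0.15 (IL-27 minus IL-33 alone), against -0.08 and -0.07, and the small subunit share differed by 1.41 percentage points with IL-27, against 0.62. With the block, 3 genes of the translation lists were called higher and 34 lower with IFN-γ, and 2 and 17 with IL-27; with single libraries left out, the count called higher with IFN-γ was 0 to 1. Without replicate 3 of all groups, the blocked fit called 1 of these genes higher and 1 lower with IFN-γ, also a setting chosen after seeing the data. Between IFN-γ and IL-27 the block changed no call of a member or of these genes. Of the genes with a change given above, Rplp2 and Rpsa turned to -0.0268 and -0.0570 with quantile normalization, and Rpl22l1 ranged from -0.31 to 0.33 with single libraries left out. At about 1 fragment per FPKM in 1 kb, Rps27, Rps4y2 and Rpl39l rest on few fragments.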
